A study of Mus musculus with 9 samples.

Results

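The 9 genes described here encode transcription factors of the myeloid lineage, the branch of blood cells that gives rise to macrophages, monocytes and granulocytes. They were Spi1, Cebpa, Cebpb, Maf, Irf8, Irf5, Runx1, Tfec and Bhlhe41, chosen by symbol from the 18049 genes of the deposited table, and all 9 were listed there. Their RNA was measured by bulk sequencing in murine primary cells cultured from tumors (MPC), 9 clones in all. Every clone had the genotype WTg, from a cross of CAG-Mettl3 mice, which overexpress the m6A methyltransferase gene Mettl3 from the ubiquitous CAG promoter, with EL1-Luc/EL1-TAg mice, whose luciferase and SV40 large T antigen are expressed from the promoter of pancreatic elastase I. The EL1 line was on the FVB/N background and the Mettl3 transgene was made in BL/6 eggs, and no age of the animals is given in the sources used here. Clones were isolated with cloning cylinders from attached tumor cells grown in DMEM with 10% FBS. The labels give no treatment, but a protocol field names NMS-P937, a PLK1 inhibitor, at 80 nM for 24 h. With a single condition, the design implies no comparison between groups, and the results below describe how the factors varied among the clones.

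PU.1, the ETS-family protein encoded by Spi1, is known as the factor that myeloid cells depend on, and it opens enhancers jointly with partners of the C/EBP, IRF and RUNX families. C/EBP-alpha and C/EBP-beta are leucine zipper proteins that drive granulocyte and macrophage genes, and MAF is a large leucine zipper protein of mature macrophages. IRF8 guides monocyte and dendritic cell development and IRF5 drives inflammatory cytokine genes, while RUNX1 acts earlier, at the emergence of blood stem cells. TFEC belongs to the MiT family of lysosome and macrophage regulators, and BHLHE41 is an E-box repressor found in tissue macrophages.

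The libraries held 12198036 to 20453901 reads on genes (median 18082583). The column names carry 3 prefixes whose meaning is not stated, and the libraries are called A1, B1 to B4 and C1 to C4 after them. Values are normalized counts, that is, read counts multiplied by the authors' factor for each library, and 1 read was worth 1.26 to 2.19 of them. Library A1 stood apart: it had the fewest reads, and Mettl3 was at 2184 normalized counts there against 468 to 621 in the other 8. The B libraries held 29664 to 32912 normalized counts of Xist and none of the Y-linked Ddx3y, and the other 5 held at most 8.39 of Xist and at least 2376 of Ddx3y, so that prefix and sex of the mouse cannot be told apart between B and C. The sources used here do not say which clones came from the same mouse, and p-values measure the spread between these libraries only.

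The labels call these cells fibroblasts, but macrophage markers stood beside fibroblast markers in every library. All 16 macrophage markers examined were above the floor of 3 reads in all 9 libraries, and their summed level ran from 566236 (C2) to 889677 normalized counts (C4). Lyz2, the macrophage and granulocyte lysozyme, averaged 407389 ± 81985 (SD, n = 9), and the complement genes C1qa, C1qb and C1qc averaged 43407, 50519 and 47772. Of 12 fibroblast markers, 11 were above the floor in every library, with a sum of 327614 (B3) to 920066 (C2), and Lum, the exception, averaged 15.3. Of 8 neutrophil markers 2 were listed in the deposited table, S100a8 at a mean of 14.6 and the G-CSF receptor gene Csf3r at 552. Only 1 of 6 dendritic cell markers was listed (Zbtb46, 39.9), and none of 6 lymphocyte markers was. Markers that were not listed have no value there, so their levels cannot be given. The values are means over all cells of a culture, so that fewer cells of a type and less RNA per cell cannot be told apart, nor can macrophages among fibroblasts from cells that hold both sets of RNA.

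In the GRCm38.p6 assembly, the same build as the labels name (GRCm38), Spi1 (ENSMUSG00000002111) lies at chr2:91082374-91115759, Cebpa (ENSMUSG00000034957) at chr7:35119293-35121928 and Cebpb at chr2:167688915-167690432. Maf and Irf8 share a chromosome, at chr8:115703253-115706894 and chr8:120736358-120756694. Irf5, Tfec and Bhlhe41 lie on another, at chr6:29526130-29541869, chr6:16830927-16898464 and chr6:145858243-145865420, and Runx1 spans chr16:92601466-92826074. In this annotation the gene bounds of Irf5 overlap those of Tnpo3, and reads in the overlap may be split between the genes. RefSeq promoter windows were given for 7 of the 9 genes, all but Spi1 and Maf.

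The 250 bases upstream of the annotated start are shown for 4 genes, because Cebpa and Irf8 followed Spi1 across the clones in the measurements below whereas Cebpb and Bhlhe41 did not meet the same test. Each is written 5′ to 3′ on the gene's strand, and capitals mark matches to 8 searched motifs.
Cebpa, chr7:35119043-35119292, plus strand: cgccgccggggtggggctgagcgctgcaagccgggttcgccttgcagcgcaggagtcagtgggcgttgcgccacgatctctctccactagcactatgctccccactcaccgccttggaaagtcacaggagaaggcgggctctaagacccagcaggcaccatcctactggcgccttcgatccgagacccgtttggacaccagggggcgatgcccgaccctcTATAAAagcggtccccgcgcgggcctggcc
Irf8, chr8:120736108-120736357, plus strand: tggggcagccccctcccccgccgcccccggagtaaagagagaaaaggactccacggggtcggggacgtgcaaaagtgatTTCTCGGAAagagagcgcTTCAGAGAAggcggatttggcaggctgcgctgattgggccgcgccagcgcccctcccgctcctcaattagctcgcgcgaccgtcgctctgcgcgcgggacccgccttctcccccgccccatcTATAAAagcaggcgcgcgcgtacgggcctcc
Cebpb, chr2:167688665-167688914, plus strand: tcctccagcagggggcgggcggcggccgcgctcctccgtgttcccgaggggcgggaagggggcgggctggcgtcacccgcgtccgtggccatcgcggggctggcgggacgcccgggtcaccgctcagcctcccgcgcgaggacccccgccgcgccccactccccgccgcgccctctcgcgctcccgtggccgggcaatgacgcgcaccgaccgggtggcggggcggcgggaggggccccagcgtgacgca
Bhlhe41, chr6:145865421-145865670, minus strand: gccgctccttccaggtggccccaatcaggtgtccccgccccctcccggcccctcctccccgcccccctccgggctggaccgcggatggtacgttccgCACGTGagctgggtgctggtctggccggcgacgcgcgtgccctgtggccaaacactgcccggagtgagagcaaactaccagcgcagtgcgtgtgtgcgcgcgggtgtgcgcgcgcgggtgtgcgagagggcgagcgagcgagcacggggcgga

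The motifs were searched on both strands by their letters: GAGGAA for PU.1, TTGCNNAA for C/EBP, TGTGGT for RUNX, GAAA repeated after any 2 bases for IRF, TTCNNNGAA for STAT, CACGTG for the E-box, CATGTG for MiT factors and TATAAA for the TATA box. Cebpa held a TATAAA 30 bases before its start, and Irf8 held one at 31 bases, letters found in 12.4% of the 32851 mouse promoter windows of the same length. Irf8 also held the STAT letters at 171 and 153 bases before its start, against 7.02% of all windows. The E-box letters stood 153 bases before the start of Bhlhe41 (6.02% of windows), and Cebpb matched none of the 8. Among the windows not shown, GAGGAA occurred on the minus strand 46 bases before 1 Runx1 start (23.3% of windows), the E-box letters CACGTG 71 bases before the other Runx1 start, and TGTGGT on the minus strand 221 bases before the Tfec start (14.0%). No member window held the C/EBP letters (9.56%), the IRF letters (2.98%) or CATGTG (12.3%). The Cebpb window was the richest in G and C of those searched, at 81.6%, and that of Tfec the poorest, at 39.2%, against a median of 52.4% for all windows. These are letter matches and describe the windows only.

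All 9 factors were well above the floor of 3.79 to 6.56 normalized counts in every library, resting on 197 reads or more each. They are taken by role below, and their levels are not ranked against each other, since no transcript lengths were used.

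Spi1 was highest in B3 and lowest in A1. Its normalized counts were 3289 in A1, 6311, 5575, 8023 and 6538 in B1 to B4, and 5244, 3840, 5776 and 5379 in C1 to C4, with a mean of 5553 ± 1409 (SD, n = 9). The highest library was 2.44 times the lowest, and the B and C libraries overlapped.

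Cebpa was the most variable of the factors. It stood at 967 in A1, at 7883, 5735, 10224 and 8894 in B1 to B4, and at 5173, 2727, 8290 and 4620 in C1 to C4, a mean of 6057 ± 3035. B3 held 10.6 times the level of A1. Among the C libraries alone the range was 2727 (C2) to 8290 (C3), so Cebpa also varied without A1.

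Cebpb behaved differently from Cebpa, with A1 far below a narrow band formed by the other 8. It was at 871 in A1, at 3110, 3697, 3629 and 3104 in B1 to B4, and at 4079, 3279, 2651 and 3568 in C1 to C4, a mean of 3110 ± 936. A1 was at 0.257 of the mean of the others, and at 0.145 for Cebpa.

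Maf followed the order of Spi1 closely at the extremes. Its normalized counts were 5653 in A1, 15582, 12057, 18434 and 12697 in B1 to B4, and 10386, 6952, 12181 and 12117 in C1 to C4, averaging 11784 ± 3917. A1 and C2 were the lowest of the 9 and B3 was the highest, as for Spi1.

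Irf8 was the only factor whose B and C libraries did not overlap. All B libraries were above all C libraries, as for 5.74% of all genes, while 4.55% had all C above all B. It was at 1501 in A1, 3100, 2975, 3486 and 3031 in B1 to B4, and 1968, 1637, 2333 and 2075 in C1 to C4, a mean of 2456 ± 712. Irf5 averaged 2940 ± 911, from 1731 in A1 through a median of 2884 (B2) to 4600 in B3, and its B and C ranges overlapped (2884 to 4600 against 2025 to 3206).

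Runx1 was the steadiest factor. It ran from 2070 in A1 to 3064 in B1 with a median of 2912 and a mean of 2756 ± 314, and the highest library was only 1.48 times the lowest. Without A1 the range was 2463 (C1) to 3064.

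Tfec and Bhlhe41 did not share the order of Spi1. Tfec was at 431 in A1, at 515, 404, 396 and 291 in B1 to B4, and at 312, 318, 449 and 505 in C1 to C4, a mean of 403 ± 82.1, and was the only factor that was not lowest in A1. Bhlhe41 was at 1595 in A1, 1917 in C2 and 3546 in C4, the highest, with the other 6 between 2334 and 2630 and a mean of 2449 ± 536.

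**Figure D1:**
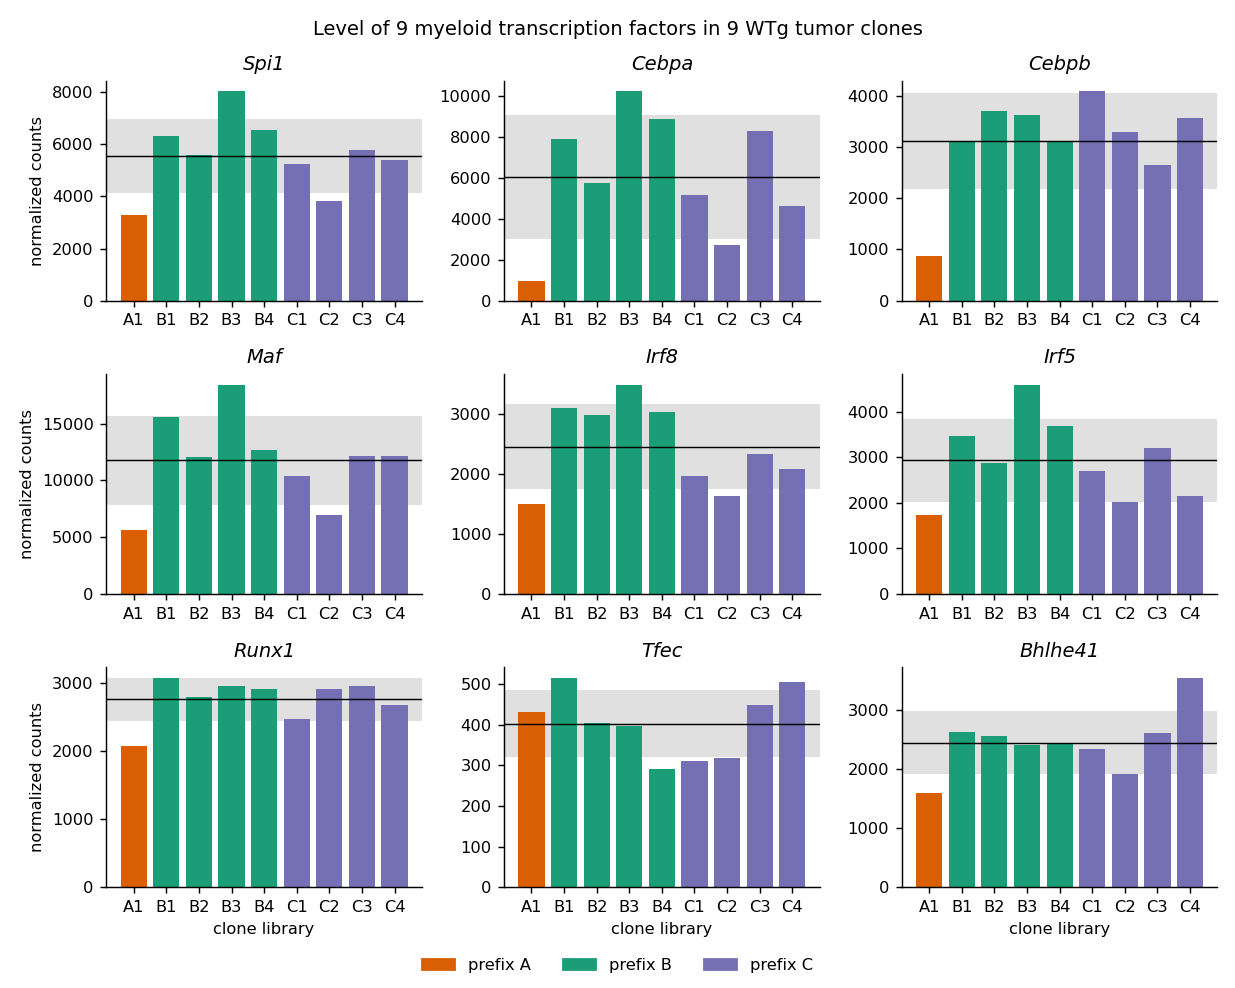
Normalized counts (vertical axes, from 0) of each factor in the 9 clone libraries, with bars colored by column-name prefix, a line at the mean and grey shading for ± 1 SD. A1 is the lowest bar for 8 of the 9 factors and B3 the highest for 5, and Runx1 (2070 to 3064) is the flattest.

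Across the clones, 8 of the 9 factors were lowest in A1, where 20.9% of all genes were lowest (14705 genes averaging 10 normalized counts or more), and 5 of the 9 were highest in B3, where 17.9% of genes were highest. The spread among clones exceeded counting error for every factor. The coefficient of variation was 50.1% for Cebpa, where counting alone would give 2.18%, and 11.4% for Runx1, where it would give 2.35%. Tfec, with the fewest reads, had 20.4% against 6.16%. On the scale of log2(normalized counts + 1), the SD was 1.07 for Cebpa, 0.67 for Cebpb, 0.53 for Maf, 0.45 for Irf5, 0.44 for Irf8, 0.39 for Spi1, 0.32 for Bhlhe41, 0.30 for Tfec and 0.18 for Runx1, with a median of 0.25 for all genes. Cebpa thus lay at percentile 92.5 of all genes and Runx1 at 34.3. Leaving out A1 took Cebpb from percentile 84.1 to 42.9 and Runx1 to 13.8, whereas Cebpa stayed at 85.3.

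The relation between factors was then examined over the clones, with Pearson's r on log2 values and an exact two-sided permutation test over all 362880 pairings, adjusted over the 36 pairs by the Benjamini-Hochberg method. Spi1, Cebpa, Maf, Irf8 and Irf5 rose and fell together: all 10 pairs among them passed, with r from 0.860 to 0.980 (n = 9, exact permutation test, adjusted p from 0.000198 to 0.00207). The 26 pairs that involved Cebpb, Runx1, Tfec or Bhlhe41 ran from -0.215 to 0.822, and 0 of them passed. The grouping into 5 and 4 was made after the values were seen and describes them. Spearman's rho was 0.90 to 0.983 within the 5 and passed for the same 10 pairs.

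Maf was the closest to Spi1, with r = 0.980, followed by Cebpa at 0.949, Irf5 at 0.946 and Irf8 at 0.926. Of the rest, Spi1 gave r = 0.695 with Runx1, 0.650 with Cebpb, 0.640 with Bhlhe41 and 0.067 with Tfec (n = 9, exact permutation test, none passing after adjustment). Without A1, the 10 pairs still passed, at r of 0.840 to 0.963, whereas Spi1 with Cebpb fell to -0.039. The pair of Cebpb and Runx1 turned from 0.714 to -0.728 without A1, and Tfec with Bhlhe41 moved from 0.395 to 0.706. Neither pair passed the adjusted test with or without A1.

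**Figure D2:**
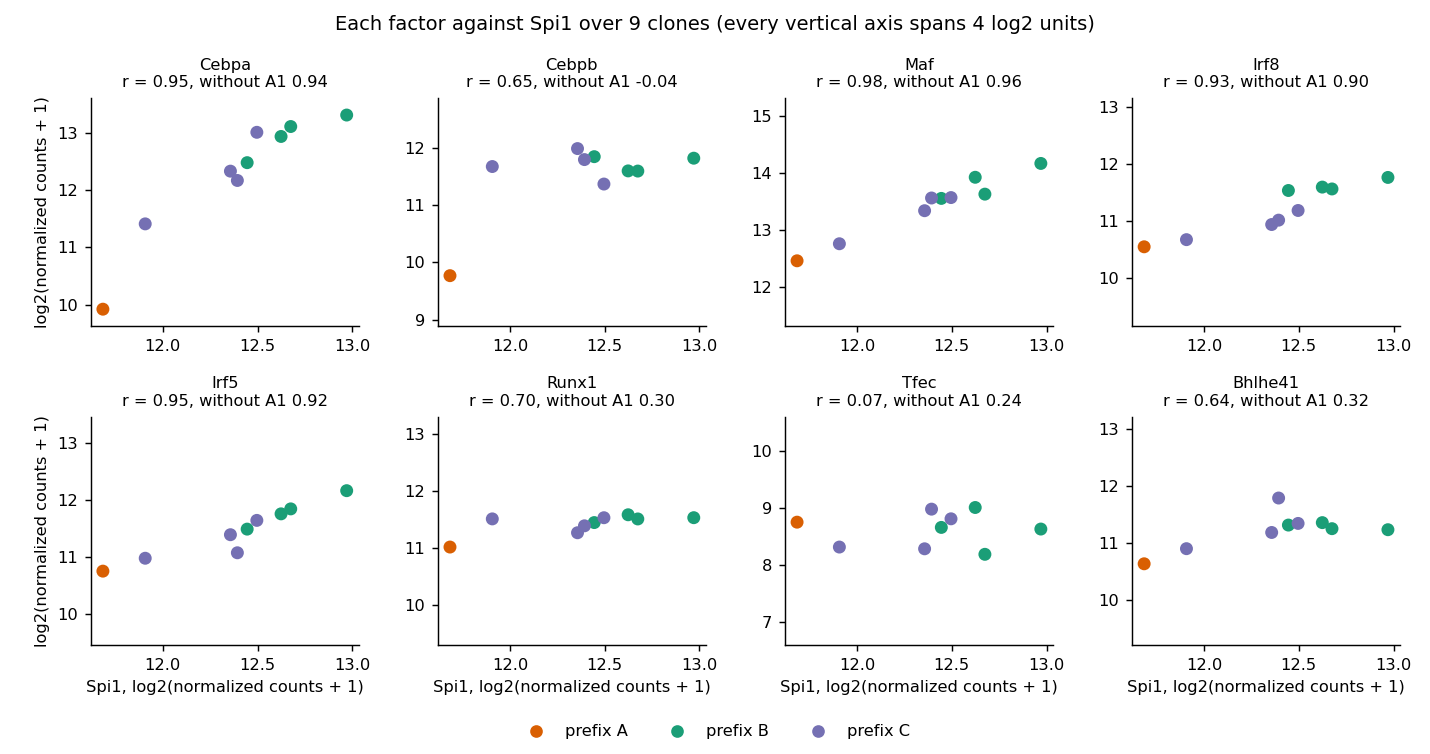
Each of the other 8 factors (vertical axes) against Spi1 (horizontal axes) in 9 libraries, both as log2(normalized counts + 1), with points colored by column-name prefix and Pearson's r above each panel. Cebpa, Maf, Irf8 and Irf5 climb with Spi1, and for Cebpb the r of 0.650 falls to -0.039 without A1.

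The prefixes limited this result. After centring within prefixes B and C (8 libraries), r among the 5 factors remained 0.696 to 0.932, but only 3 of the 10 pairs passed the adjusted exact permutation test, and 9 of 10 had an unadjusted p under 0.05. Without the 2 libraries farthest from the median of the first factor of a pair, r was 0.719 to 0.950, and 1 pair of all 36 passed, in tests over 7 libraries. Dividing each factor by the macrophage marker sum of its library left r at 0.861 to 0.973, with all 10 pairs passing. Both factors of a pair were divided by the same number, which can itself raise r. These values therefore cannot show whether the pairs depend on the marker sum. The number of passing pairs was 10 to 15 when single libraries were left out, and Spi1 with Runx1 (r = 0.903 without C2) and Spi1 with Bhlhe41 (0.858 without C4) were among those that then passed.

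**Figure D3:**
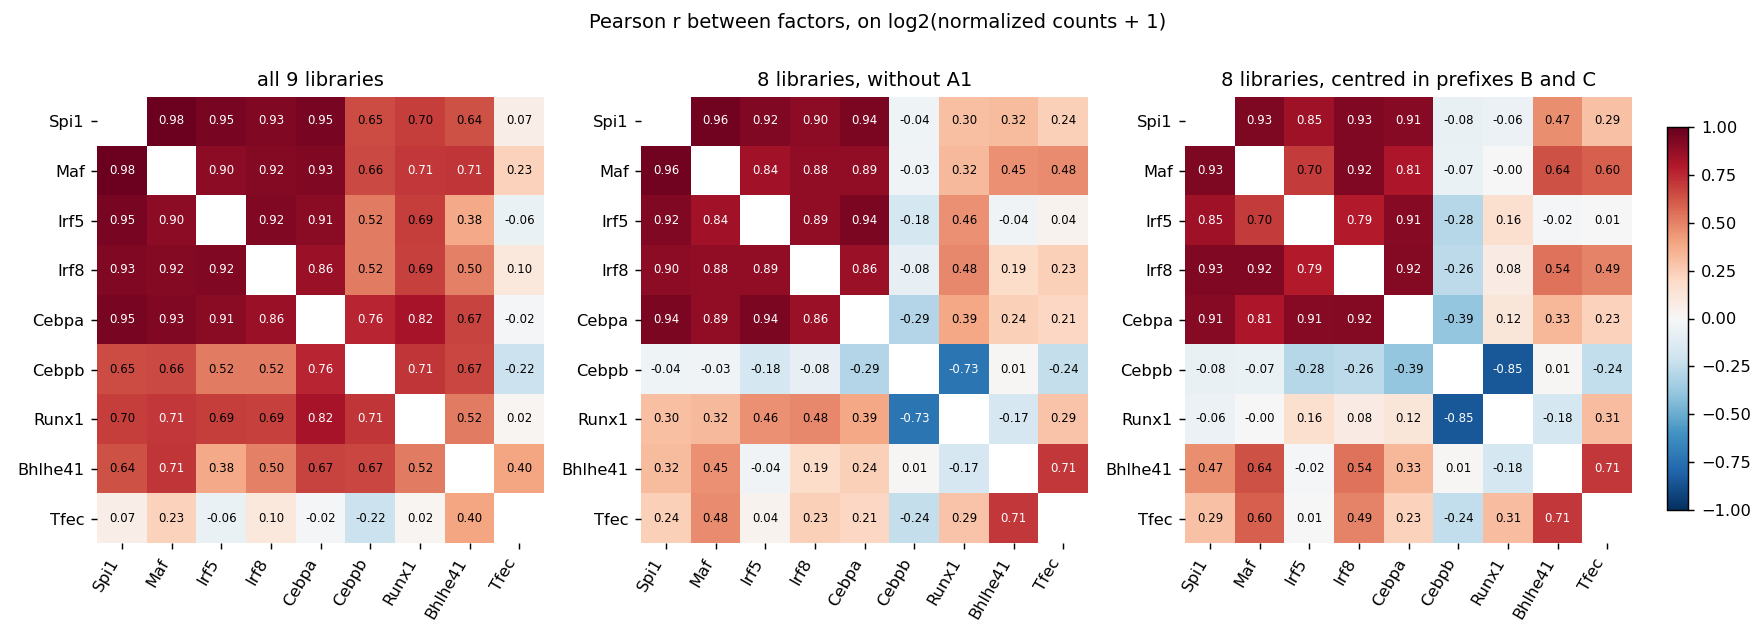
Pearson's r between the 9 factors on log2(normalized counts + 1), over all 9 libraries (left), over 8 libraries without A1 (middle), and after centring within prefixes B and C (right). The block of Spi1, Maf, Irf5, Irf8 and Cebpa stays at 0.696 or more in all 3 panels, and Cebpb with Runx1 goes from 0.714 to -0.850.

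To place the factors among all genes, the slope of each gene on log2 Spi1 was fitted with limma over 14704 genes, in log2 units per log2 unit of Spi1. Cebpa had a slope of 2.60 ± 0.28 (SE), above 1, with an adjusted p of 0.0019. The slopes of Maf, Irf5 and Irf8 were nearer to 1, at 1.34 ± 0.11, 1.10 ± 0.13 and 1.03 ± 0.15, and passed with adjusted p of 0.0011, 0.0021 and 0.0034. Of the 8 other factors these 4 were called with a positive slope, where 12.5% of all genes were, and none with a negative slope, where 10.2% were. Cebpb (1.12 ± 0.43, adjusted p = 0.087), Runx1 (0.32 ± 0.12, 0.079), Bhlhe41 (0.52 ± 0.21, 0.099) and Tfec (0.05 ± 0.26, 0.90) did not pass.

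Without A1 the same 4 factors were called, where 8.69% of genes rose with Spi1, and with the macrophage marker sum as a covariate they were called again, where 7.81% did. With prefix as a covariate, none of the factors was called: the slopes were 2.0 for Cebpa, 1.3 for Maf, 1.03 for Irf5 and 0.64 for Irf8, with adjusted p of 0.116, 0.116, 0.146 and 0.121, and a single gene (0.0068%) was called in that limma fit, where 2595 of the genes had an unadjusted p under 0.05. Leaving out C2 brought Cebpb (slope 1.54, adjusted p = 0.040) and Runx1 (0.46, 0.019) past the threshold, and leaving out C4 did so for Bhlhe41 (0.52, 0.019).

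Known targets of PU.1 and C/EBP factors were followed in the same fit. Of 25 such genes, 14 rose with Spi1, where 12.5% of all genes did, and 0 fell, where 10.2% did, with a median slope of 0.58 against 0.026 for all genes. Csf3r, the G-CSF receptor gene, had the steepest slope of the list, 3.0 ± 0.32 (adjusted p = 0.0018), over levels from 74.4 (A1) to 1009 normalized counts (B3). Cybb, the catalytic subunit gene of the phagocyte NADPH oxidase, rose with a slope of 1.21 ± 0.11 (adjusted p = 0.0013), and Csf1r, the M-CSF receptor gene, with 1.03 ± 0.25 (0.019). The lysosomal genes Laptm5 (0.85) and Cd68 (0.64) and the signaling adaptor gene Tyrobp (0.63) rose less steeply. Lyz2, by contrast, had a slope of 0.10 ± 0.35 (adjusted p = 0.85) and Itgax, an integrin gene, -0.04. Without A1, 13 of the 25 were called, all with positive slopes (8.69% of all genes). With the macrophage marker sum as a covariate 8 were called (7.81%), and Csf1r was not (adjusted p = 0.051, limma). That sum holds Csf1r and other genes of this list, so their slopes were adjusted for a sum that includes the gene itself. This can itself lower a slope, so the smaller number of calls cannot show whether these genes depend on the marker sum. With prefix as a covariate 0 were called, although all 25 slopes were above 0.

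Most macrophage and most fibroblast markers had slopes of opposite sign on Spi1. Slopes were above 0 for 15 of the 16 macrophage markers, and for 52.5% of all genes. The exception was Cd14, at -0.34 ± 0.23, which was not called. Of 16 macrophage markers, 9 rose, where 12.5% of all genes did, and 0 fell, among them the efferocytosis receptor gene Mertk (1.25 ± 0.18). Some of these genes are also in the target list. Of 12 fibroblast markers, 0 rose and 7 fell, where 10.2% of all genes fell, with Pdgfra at -2.53 ± 0.60, Postn at -2.14 ± 0.61 and the collagen genes Col3a1, Col1a2 and Col1a1 at -1.86, -1.47 and -1.43. The proteoglycan genes Lum and Dcn had slopes of the other sign, 3.04 ± 1.22 and 1.76 ± 0.88, and did not pass (adjusted p of 0.099 and 0.17). The lists were also called in part without A1 (8 macrophage markers rose, where 8.69% of all genes did, 5 fibroblast markers fell, where 862 of 14704 genes did, and Lum, above the floor in 6 of 9 libraries, rose with a slope of 5.94), without Pdgfra and Postn among the calls, and neither list had a call with prefix as a covariate.

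**Figure D4:**
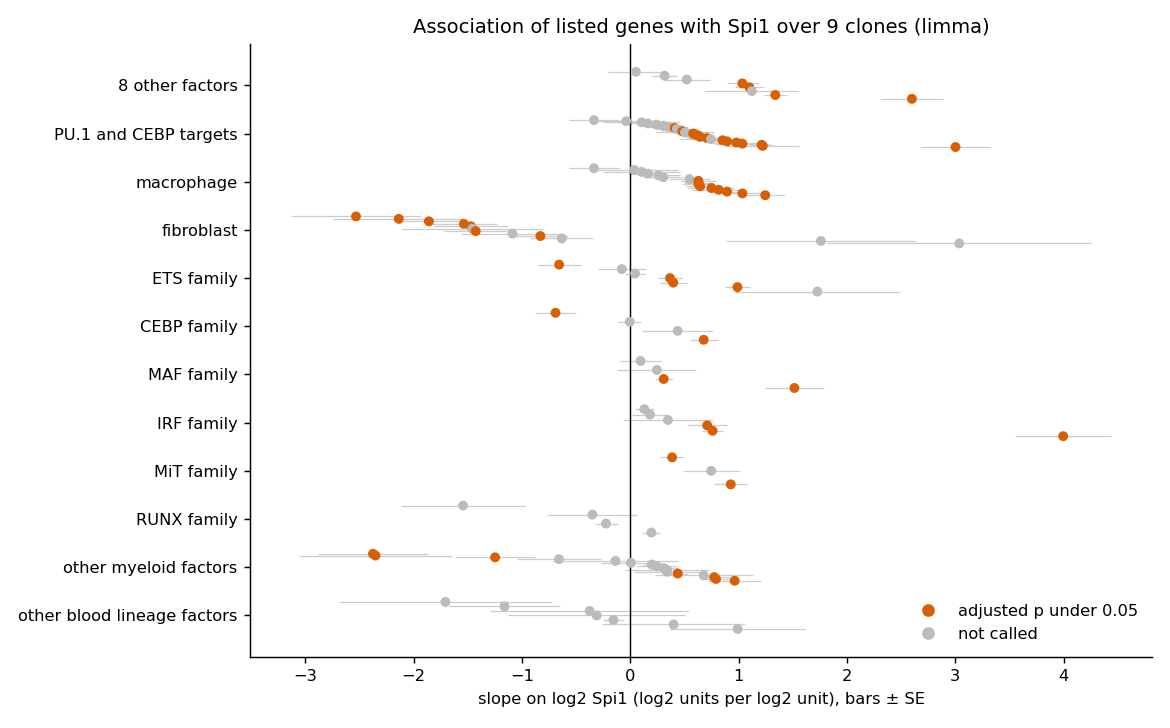
Slope on log2 Spi1 (horizontal axis, ± SE) of each listed gene tested in the limma fit over 9 libraries, by list, with called genes in orange. Of the 25 PU.1 and C/EBP targets 14 are called, all to the right of 0, and of the 12 fibroblast markers 7 are called, all to the left.

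The summed markers were then set against the factors. The fibroblast sum was lowest in B3 (327614), where Spi1 was highest, and highest in C2 (920066) and A1 (769214), where Spi1 was lowest. Fn1, at a mean of 276558 normalized counts, was the largest part of this sum. The slope of Fn1 on Spi1 was not called (-0.63 ± 0.29, adjusted p = 0.14, limma). The correlation of the fibroblast sum with Spi1 was r = -0.869 (n = 9, exact permutation test, adjusted p = 0.027 over 18 relations, -0.874 without A1 and -0.812 centred within prefixes). Without the 2 libraries farthest from the median of the sum it was -0.752, and Spearman's rho was -0.767, with an adjusted p of 0.077 in the exact permutation test. Maf (-0.860), Irf5 (-0.847) and Irf8 (-0.794) gave similar values and passed, and Cebpa (-0.752, adjusted p = 0.061, n = 9, exact permutation test) did not. By Spearman's rho none of the 18 relations passed. Centred within prefixes, r was -0.792 for Maf, -0.713 for Irf5 and -0.684 for Irf8. Their unadjusted p was then 0.068, 0.078 and 0.118, against 0.040 for Spi1 (exact permutation test). No factor had a relation with the macrophage sum that passed, and r was 0.460 for Spi1 and 0.245 for Cebpa. Lyz2, at a mean of 407389 normalized counts, was by far the largest part of this sum (566236 to 889677). Its slope on Spi1 was 0.10, whereas 9 of the 16 markers rose with Spi1. The same sum served as divisor and covariate above, so these weigh Lyz2 more than any other marker. The part of the marker sums in the relation between the factors was not tested beyond the division and the covariate given above.

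**Figure D5:**
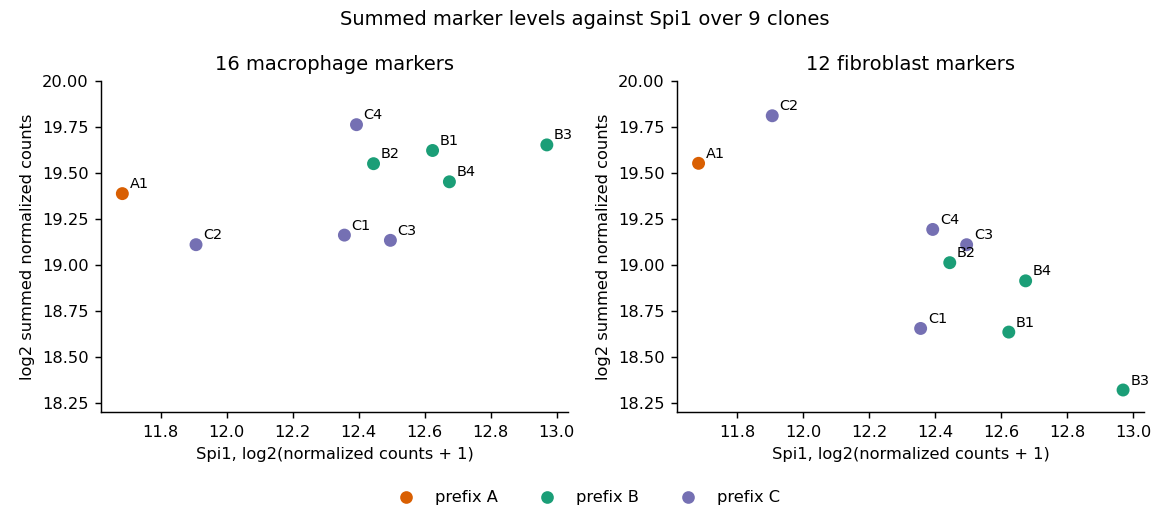
Log2 of the summed normalized counts of 16 macrophage markers (left) and 12 fibroblast markers (right) against log2(normalized counts + 1) of Spi1 in 9 libraries, colored by column-name prefix. On the right the points fall from A1 and C2 at low Spi1 to B3, the library with the lowest fibroblast sum (327614). Lyz2 is the largest part of the sum on the left, and Fn1 of that on the right.

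Relatives of the 9 factors in the same families differed in sign. In the limma fit on log2 Spi1, beside which the calls in all families below stand, 12.5% of all genes rose and 10.2% fell. In the ETS family, 7 of 8 genes were tested, and Fli1, a vascular and blood ETS factor, rose with a slope of 0.99 ± 0.12, as did Elf4 (0.40) and Elf1 (0.37), while Ets2 fell (-0.66). Spib, the closest relative of Spi1 and a lymphoid factor, was at or under the floor in every library. Of 4 C/EBP relatives, Cebpg rose (0.68) and Ddit3, the stress factor CHOP, fell (-0.69). Ets2 and Ddit3 were not called without A1 (adjusted p of 0.12 and 0.27, limma). The small MAF gene Mafg rose with a slope of 0.31 ± 0.081 (adjusted p = 0.026). With the macrophage marker sum as a covariate, Elf4, Elf1, Ddit3 and Mafg lost their calls (adjusted p of 0.12, 0.10, 0.058 and 0.071, limma). Fli1, Ets2 and Cebpg kept theirs.

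Of 6 interferon regulatory factor genes tested besides Irf8 and Irf5, Irf2 (0.76) and Irf1 (0.71) rose with Spi1. Irf4 had a slope of 4.0 ± 0.45, but its level was 3.12 to 120 normalized counts and only 7 of 9 libraries were above the floor, so that its slope depends on the pseudocount. In the MiT family Tfeb (0.93) and Tfe3 (0.39) rose. With the macrophage marker sum as a covariate, Irf1 and Tfe3 lost their calls (adjusted p of 0.069 and 0.11, limma), while Irf2, Irf4 and Tfeb kept theirs. None of the 4 genes listed beside Runx1 was called: its relatives Runx2 and Runx3, and Cbfb and Runx1t1, which are not RUNX genes themselves. Bhlhe40 (-0.52 ± 0.24), the paralog of Bhlhe41, was not called either.

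Among 16 other myeloid factors tested, 4 rose with Spi1. They were Nr1h3 (0.96), the oxysterol receptor gene, Lmo2 (0.79), Ikzf1 (0.77) and Zeb2 (0.44), the last at 8801 ± 1164 normalized counts. The 4 that rose and 3 that fell stand beside 12.5% and 10.2% of all genes. Nr4a1 (-2.37), Egr1 (-2.35) and Egr2 (-1.25) fell. Of these, Nr4a1 alone was called again without A1 (-3.10) and with the macrophage marker sum as a covariate (-2.53), while Egr1 and Egr2 were not in either fit. Nr1h3 and Zeb2 also lost their call without A1, and Zfp36 gained one (1.44). Myb, a factor of immature blood cells, had 0 reads in all 9 libraries. Of 12 factors of other blood lineages with a value, 5 were at or under the floor throughout, among them Gata1, Pax5, Eomes and Foxp3, and none of the 7 tested was called, although without A1 Tal1 rose (2.57) and Ebf1 fell (-2.22). Gata2, a stem and mast cell factor, averaged 312 ± 280 and the B cell factor gene Ebf1 907 ± 412. With prefix as a covariate, none of these family and lineage genes was called.

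Between the B and C libraries (4 each, all 9 factors tested), limma called 0 of the 9 factors. Over 14705 genes it called 12 as lower in C (0.0816%) and 17 as higher (0.116%), and 2963 had an unadjusted p under 0.05. Irf8 came nearest, at -0.66 ± 0.11 (SE) on the log2 scale in C relative to B, with an adjusted p of 0.073. Its ranges did not overlap, 2975 to 3486 in B against 1637 to 2333 in C, as held in that direction for 5.74% of genes and in the opposite direction for 4.55%. Spi1 (-0.39 ± 0.15), Maf (-0.51 ± 0.21), Irf5 (-0.54 ± 0.18) and Cebpa (-0.73 ± 0.32) had lower means in C but overlapping ranges and adjusted p of 0.18 to 0.25. Leaving out C3, which also held the most RNA of pancreatic acinar genes (a summed 2415 normalized counts of 6 markers), gave 259 called genes and an adjusted p of 0.028 for Irf8. The part of the acinar RNA in that change was not tested.

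The slope on log2 Mettl3 was also fitted, since Mettl3 is the gene of the transgene. Cebpb was the only factor called, with a slope of -0.90 ± 0.12 (adjusted p = 0.0046, limma), where 2.26% of all genes were called with a negative slope and 0.36% with a positive one. The value rested on A1: without it the Cebpb slope was 0.30 and limma called 0 genes, with 1634 at an unadjusted p under 0.05. The slopes of the other 8 factors were then all above 0 as well, from 0.091 for Bhlhe41 to 1.92 for Irf8, and none was called. Of all genes, 54.2% had a slope above 0 in that fit. Without A1, Mettl3 was at 515 to 621 in B and 468 to 502 in C, so these slopes cannot be told apart from the prefixes. With prefix as a covariate, 5 of the 9 slopes were above 0. Leaving out C2 brought Cebpa (slope -1.31, adjusted p = 0.027) past the threshold, and leaving out C1 did so for Runx1 (-0.23, 0.050). With voom on the recovered reads of all 9 libraries, Cebpb was among 60 genes called, with an adjusted p of 0.025.

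Finally, the genes with the pattern most like each factor were listed from 12300 genes averaging 50 normalized counts or more, by Pearson's r over the 9 libraries, as a description. Spi1 was nearest to Macir (r = 0.987) and to Rxra (0.985), a nuclear receptor gene, and 4.01% of the genes had r above 0.9 with it. Maf was nearest to Rnpepl1 (0.998) and Tbkbp1 (0.992), Irf8 to Syngr1 (0.992) and Galc (0.990), Irf5 to Cpsf1 (0.992) and Grk2 (0.988), and Cebpa to Borcs6 (0.994) and Fam241a (0.990). The nearest to Cebpb were the pseudogenes Mrpl23-ps1 (0.986) and Gm14303 (0.984), whose reads may be shared with other copies. Runx1 was nearest to Crebbp and Tbl1xr1 (both 0.961), the first a coactivator gene. Few genes resembled Tfec, with 0.0650% above 0.9, led by Mid1ip1 (0.960) and P2ry14 (0.947), or Bhlhe41, with 0.203%, led by 3830406C13Rik (0.952) and Tnfsf12 (0.949).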

How the data were processed

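RNA from 9 MPC clones was sequenced as stranded mRNA libraries (TruSeq). The labels name ISOGEN for extraction and the study's methods the RNeasy kit. The submitters' processing notes list FastQC 0.11.9, STAR 2.7.10, RSEM 1.3.3 and the build GRCm38, with no role given. The authors deposited log2 values, which were read counts multiplied by 1 factor per library plus an offset of 4: undoing the log2 and subtracting 4 gave normalized counts, of which 100% of the nonzero values up to 1000 reads were whole reads within 0.1 read. Library factors were left as the authors set them. The table also holds 6 columns of MEF libraries of other studies, which were not used. Of 18049 identifiers 18033 matched the gene names given, and 68 rows had no symbol. No pair of libraries agreed within sampling noise (smallest chi-square per degree of freedom 24.1). Floors of 3 reads cover counting error only.

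Fits used limma 3.58.1 (lmFit, eBayes with trend) in R 4.3.3 on log2(normalized counts + 1), over genes averaging 10 normalized counts or more, with Benjamini-Hochberg adjustment over all genes tested and a threshold of 0.05. Correlations used exact two-sided permutation tests in Python 3.11.15 with numpy 2.4.6, pandas 2.3.3 and matplotlib 3.10.9. Scripts were tested on simulated data. The factors and all gene lists were chosen with earlier results of these data known. Genes named are the 9 factors, Mettl3, in each list at most the 4 highest and 4 lowest by mean and those called in a limma fit, and the 2 genes nearest to each factor. Some listed genes are not reported here by name. Alternatives were other scalings, pseudocounts and filters, voom, prefix as a covariate, and single libraries left out, and, chosen after seeing the data, the macrophage sum as a divisor or covariate and fits within prefixes B and C. Promoter windows came from RefSeq on GRCm38.p6.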

Additional observations from a re-analysis of the deposited data

Results flagged for a closer look

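One value stood apart within its group. For Cebpb, the gap between the lowest library, A1 (871 normalized counts), and the next lowest, C3 (2651), was 0.555 of the whole range of the 9 libraries, beyond Dixon's 95% critical value. It was the only such value among 27 groups of values tested, where chance flags about 1 in 20 groups. The same library had the highest level of Mettl3 and the fewest reads, and the part of either in the low Cebpb value was not tested.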

How the results depend on the processing

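Mean levels of the 9 factors moved by less than 1 SD between libraries under each rescaling tried. The same held with single libraries left out, but leaving out 1 of 9 values cannot move a mean by 1 SD, so that check could not fail. Their spread did not hold in the same way: without A1 the SD of log2 values fell from 0.67 to 0.19 for Cebpb and from 0.18 to 0.10 for Runx1. The number of passing pairs was 10, and it was 3 after centring within prefixes and 1 without the 2 farthest libraries, both in tests with fewer pairings. The count of genes called on Spi1 was 3338, from 2001 (without B3) through 2140 (without A1) to 3204 with single libraries left out, 2016 with the macrophage sum as a covariate, 562 with that covariate and without A1, and 1 with prefix as a covariate. Between prefixes 29 genes were called, and 9 to 259 with single libraries left out. On Mettl3 386 were called, 238 at a mean of at least 50, 60 with voom, 0 to 494 with single libraries left out, and 0 with prefix as a covariate. A1 is the only library of its prefix and has no part in a slope fitted with prefix as a covariate. Leaving it out of the prefix fits on Spi1 and Mettl3 gave the same counts and was no separate check. The sign of several uncalled values turned. The r of Spi1 with Cebpb was -0.076 centred and -0.152 without the 2 farthest libraries, that with Runx1 -0.057 centred, that with Bhlhe41 -0.364 without the 2 farthest, and that with Tfec -0.074 without the 2 farthest and -0.172 after division by the macrophage sum. With single libraries left out, r ranged from -0.039 to 0.793 for Cebpb and from -0.140 to 0.264 for Tfec. The slope of Cebpb on Spi1 was -0.066 with prefix as a covariate and -0.17 without A1 and with the macrophage covariate, and that of Runx1 -0.022 with prefix. The slope of Tfec was -0.18 with the macrophage covariate and -0.12 without A1 as well, where that of Bhlhe41 was -0.089 and Irf8 lost its call (adjusted p = 0.066, limma). With single libraries left out, slopes ran from -0.025 to 1.54 for Cebpb and -0.11 to 0.25 for Tfec. The slope of Cebpb on Mettl3 was 0.83 with prefix as a covariate and -0.94 to 0.30 with single libraries left out. The causes of these changes were not tested. Division by transcript length was not run, because no lengths were given. No paired analysis was possible because the 9 libraries form 1 group. Tfec, at 197 to 405 reads a library, was the factor most limited by depth.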
